A study of Mus musculus with 11 samples.

Results

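Open chromatin in keratinocytes at the wound margin was compared with that in keratinocytes of unwounded skin, both from mice that lack *Grhl3* in the epidermis. Accessibility was measured by ATAC-seq, in which a transposase cuts exposed DNA, and each condition gave 1 list of called regions with no replicate. The wounded list held 22474 regions and the unwounded list 29364, so the 22474 unwounded regions with the largest −log10 p of the peak caller were kept and compared with the whole wounded list. A kept region that met no kept region of the other list by at least 1 base is called wounded-only or unwounded-only here. Of the 44948 kept regions, 11709 were of these kinds, 5820 of them wounded-only (25.9% of the wounded list) and 5889 unwounded-only (26.2% of the unwounded list). Lists of equal length tend to leave like numbers on each side, so the near-equality of these counts is not a result. Most of these regions were narrow, weakly enriched and away from promoters. The rule itself leaves weak and narrow regions unshared more readily. At promoters, 5 of 20 cytokine list genes were on the wounded side, against 5.42% of all protein-coding genes, but housekeeping genes had a like share, 4 of 15. On the unwounded side were 5 of 23 suprabasal and cornified envelope genes, against 5.62%, and here too chromatin regulators (4 of 16) and housekeeping genes (3 of 15) had like shares.

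The study asked how the epidermal transcription factor GRHL3 shapes the keratinocyte response to wounding. The *Grhl3*-cKO mice (Krt14-Cre with *Grhl3* fl/fl, labelled GRHL3 KO) and their WT littermates, which also carried Krt14-Cre, were on a C57BL/6J background (labelled C57BL/6) and were 8 weeks old, both males and females. The wounded groups came from 1 mm margins of 4 mm punch wounds in back skin at day 3, the unwounded groups from distal skin, and each ATAC sample pooled 4 wounds from 2 mice. Cells were sorted for CD49F and against CD45, CD31 and TER119, and 100000 cells went into each ATAC sample. Cre under a Krt14 promoter deletes the gene in cells that express, or descend from cells that expressed, this basal keratin, and other cells that pass the sort keep an intact *Grhl3*. The WT lists, which the choice of regions did not use, held 36872 wounded and 10769 unwounded regions. RNA was counted in 1 unwounded and 2 wounded *Grhl3*-cKO libraries, with 13497283, 15223569 and 14279568 counts on genes.

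GRHL3 belongs to the Grainyhead family of transcription factors, which bind a short palindromic sequence and act in epidermal barrier formation, epithelial migration and the closing of epithelial sheets. After wounding, keratinocytes of the margin reorganise actin and migrate together over the wound bed while they change how tightly they adhere to each other and which keratins they make. Accessible regions away from promoters often hold enhancers, and the AP-1 factors of the FOS and JUN families are abundant at such regions in keratinocytes.

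The labels were checked against marker RNA before the regions were read. The 10 basal keratinocyte markers summed to 49450 CPM (counts scaled to equal library totals) in the unwounded library and to 49630 and 43270 in the wounded libraries, which fits the labelled cell type. *Krt5* was the most abundant of them unwounded, with 13490 CPM against 12950 for *Krt14*, and *Krt14* was the most abundant in both wounded libraries. The 24 wound keratinocyte genes summed to 3608 CPM unwounded against 8825 and 6058 wounded, led by *Krt16*, so both wounded libraries were above the unwounded one for this list. *Grhl3* itself had 76.2 CPM unwounded and 116 and 104 wounded. Counts were made per gene, so transcripts with and without the deleted part cannot be told apart. The unwounded library had 1101 CPM of *Xist*, the transcript of the inactive X chromosome, against 1.25 and 1.75 in the wounded libraries. *Ddx3y*, a Y-linked helicase, was at 0 CPM unwounded and at 97.8 and 130 wounded, so sex and wounding cannot be told apart in the RNA comparison. Neither *Grhl3*-cKO ATAC list had a region at *Xist*, *Ddx3y*, *Kdm5d*, *Eif2s3y* or *Uty*, and chromosome Y held 5 wounded and 10 unwounded regions in the full lists.

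The threshold that equalised the lists fell at a −log10 p of 4.37073 for the last unwounded region kept and 4.37066 for the first left out, with 6890 regions beyond it. The wounded list was kept whole, down to a −log10 p of 3.46. This measure grows with sequencing depth, so each list was ranked within itself. Of the wounded-only regions, 2110 (36.3%) overlapped an unwounded region below that threshold, and 3710 overlapped no unwounded region of any strength. Since the wounded list was kept whole, no unwounded-only region could overlap a weaker wounded one. Because the lists end at different values, 147 of the 2110 (6.97%) had a larger −log10 p in the unwounded list, and 67 (3.18%) a larger enrichment. In a pool of cells, a site open in fewer cells and a site less open in each cell cannot be told apart.

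Unshared regions sat low in both lists. Their median width was 277 bases on the wounded side and 271 on the unwounded side, against 440 for shared regions of the wounded list. The median enrichment over local background was 3.89-fold and 3.91-fold, against 4.59-fold for shared regions. Among the 5618 strongest regions of each list, 124 (2.21%) were wounded-only and 146 (2.60%) unwounded-only, while the 5619 weakest held 2950 (52.5%) and 2858 (50.9%). None of the 1000 strongest regions of either list was unshared, and the first unshared region stood at rank 1140 among wounded and rank 1125 among unwounded regions. Sites with the highest accessibility were thus found in both conditions. Few unshared regions flanked a region of the other list, with 113 (1.94%) wounded-only and 104 (1.77%) unwounded-only regions within 500 bases of one.

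The strongest wounded-only region lay in an intron near *Gipc2*, which encodes a PDZ domain protein, at chr3:152152121-152152359 (mm10). It was 7.03-fold enriched with a −log10 p of 12.6, and an unwounded region below the threshold overlapped it at 3.27-fold. Both WT lists held it, at 5.01-fold wounded and 3.56-fold unwounded, so it was stronger in the wounded list of each genotype. Another strong wounded-only region was in an intron near *Amotl1*, an angiomotin family gene whose product binds YAP, at chr9:14588694-14589055 with 6.25-fold enrichment. The WT wounded list held that region at 5.44-fold and the WT unwounded list at 3.61-fold. The strongest unwounded-only region was intergenic near *Pinlyp* at chr7:24539732-24540051, 7.12-fold enriched with a −log10 p of 13.2. The WT wounded list, with 36872 regions, held it at 5.18-fold, and the WT unwounded list, with 10769, did not. This was the usual case for both kinds. The WT wounded list alone of the WT lists held 63.3% of all wounded-only and 63.6% of all unwounded-only regions. An unwounded-only region near *Nck2*, an adaptor that links receptors to actin, at chr1:43423250-43423630 had 6.85-fold enrichment and was in the WT wounded list at 4.60-fold. These 4 regions were chosen after their values were seen, as were the next ones. Unwounded-only regions near *Lrrc6*, *Hnrnpa3*, *Eci2* and *Enah* were, like that of *Pinlyp*, in the WT wounded list alone of the WT lists. Those near *Gtf2i* (6.46-fold) and *Mcf2l* (3.54-fold) were in the WT unwounded list alone. Strong wounded-only regions near *Nars2*, *Gna14*, *Cfap43* and *Parp8* were in neither WT list.

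By place, both kinds were mostly distal. Promoters, taken as within 1000 bases of a transcript start, held 1344 wounded-only regions (23.1%, Wilson 95% interval 22.0 to 24.2%) and 1344 unwounded-only regions (22.8%, 21.8 to 23.9%). Shared regions were at promoters more often, with 43.7% (42.9 to 44.5%). The unshared shares depend on the list length, since with the strongest 5000 regions of each list promoters held 44.0% of wounded-only and 38.7% of unwounded-only regions. All such intervals cover counting error only, not the difference between animals. Introns held 2192 wounded-only (37.7%) and 2334 unwounded-only (39.6%) regions, intergenic sequence 2141 (36.8%) and 2047 (34.8%), and exons 143 (2.46%) and 164 (2.78%). The kinds parted in their distance from genes. The median distance to the nearest protein-coding start was 29.9 kb for wounded-only, 20.6 kb for unwounded-only and 9.19 kb for shared regions. More than 100 kb from any such start lay 1440 wounded-only regions (24.7%, 23.7 to 25.9%) and 1025 unwounded-only regions (17.4%, 16.5 to 18.4%). For the unshared regions among the 5618 strongest the shares were 31 of 124 (25%) and 25 of 146 (17.1%). With the same 5000 regions per list they were 16.3% and 13.7%, with the wounded side again higher.

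Chromosomes differed in how many of their regions were unshared. On chromosome 11, which carries the type I keratin cluster and many transcribed genes, 26.7% of wounded regions and 31.7% of unwounded regions were unshared. Chromosome 15, with the type II keratin cluster, had 27.8% and 32.1%. Chromosome 4 had 29.2% and 30.0%, the former being the highest wounded share of any chromosome. The part of the keratin clusters in these shares was not tested. The wounded share was the higher one on 11 chromosomes, among them chromosome 3 (27.1% and 24.0%), chromosome 16 (25.2% and 22.1%) and X (26.5% and 21.3%). Chromosome X held 155 wounded-only regions (2.66%, 2.28 to 3.11%) and 116 unwounded-only regions (1.97%, 1.64 to 2.36%). The sex of the pooled ATAC mice is not labelled per sample, and its part in the X chromosome values was not tested.

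The WT lists gave a reading that the choice of regions had not used. The WT wounded list held 4036 wounded-only regions (69.3%, 68.2 to 70.5%) and 4260 unwounded-only regions (72.3%, 71.2 to 73.5%), against 97.7% of shared regions. The shorter WT unwounded list held 398 (6.84%, 6.22 to 7.52%) and 558 (9.48%, 8.75 to 10.2%), against 55.7% of shared regions. Both kinds thus lay mainly in the WT wounded list, whichever *Grhl3*-cKO condition they came from. Neither WT list held 1739 wounded-only (29.9%) and 1584 unwounded-only (26.9%) regions, while only 370 shared regions (2.22%) were in neither. Promoter regions met the WT wounded list more often than distal ones, with 79.9% against 66.2% on the wounded side and 79.5% against 70.2% on the unwounded side. Among the 5618 strongest, 105 of 124 wounded-only and 136 of 146 unwounded-only regions were in the WT wounded list, and 13 and 47 in the WT unwounded list. The WT wounded list is the longest of the 4, and the part of list length in these shares was not tested.

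The same rule was applied to the WT lists at the length of the shortest list, 10769. It left 3510 WT wounded-only (32.6%) and 3475 WT unwounded-only (32.3%) regions. For *Grhl3*-cKO at that length the counts were 3220 (29.9%) and 3230 (30.0%). Promoters held 21.9% of WT wounded-only and 46.3% of WT unwounded-only regions, whereas the *Grhl3*-cKO shares were 32.2% and 33.4%. The lists end at very different strengths, at a −log10 p of 7.56 for WT wounded and 3.79 for WT unwounded against 6.11 and 6.34 for *Grhl3*-cKO. Strength and genotype therefore cannot be told apart in these promoter shares.

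Promoter regions were then read gene by gene. Of 21924 protein-coding genes, 1189 (5.42%) had a wounded-only and 1233 (5.62%) an unwounded-only region at a promoter, 7268 (33.2%) had a shared one, and 12502 (57.0%) had none. Some genes had both an unshared and a shared promoter region, 131 of them with a wounded-only and 96 with an unwounded-only one. Among the list genes named below, *Cald1*, *Ocln*, *Pmepa1*, *Sox4*, *Il1r1* and *Tfap2c* had both and are in both counts. Lists of genes below are read against 5.42% and 5.62%. By distance, 3407 genes (15.5%) were nearest to a wounded-only region within 100 kb and 3776 (17.2%) to an unwounded-only one, with 1118 (5.1%) in both sets.

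The 10 genes with the strongest wounded-only promoter regions were *Dpf3*, *Rprm*, *Asah2*, *Oas1c*, *Phkg2*, *Zc4h2*, *Fbxo43*, *Ank2*, *Net1* and *E330009J07Rik*. At *Dpf3*, a subunit of BAF chromatin remodelling complexes, the region chr12:83487726-83487942 was 5.91-fold enriched in the wounded list and 4.57-fold in the WT wounded list. The promoter of *Rprm*, a p53 target that restrains the cell cycle, had 6.10-fold enrichment at chr2:54085387-54085643 and 3.50-fold in the WT wounded list. *Net1*, a guanine nucleotide exchange factor gene, had a region of 5.28-fold at chr13:3893486-3893691, with 4.57-fold in WT wounded and 3.39-fold in WT unwounded skin. Of the 10 regions, 7 overlapped an unwounded region below the threshold, those of *Phkg2*, *Ank2* and *Net1* being the exceptions, and all 10 were in the WT wounded list. Several of these genes had few or no counts, with *Rprm* and *Fbxo43* at 0 CPM in all 3 libraries and *Ank2* at 0 unwounded and 0.20 and 0.77 wounded. The glycolytic gene *Eno1* was also at 0 in all 3, so a 0 in these counts does not by itself show a silent gene. *Net1* was well expressed, at 933 CPM unwounded and 801 and 934 wounded.

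On the unwounded side the strongest promoter regions belonged to *Tnrc6a*, *Agfg2*, *H2-K1*, *Gsto2*, *Mief1*, *Wbp1l*, *Unc45a*, *Ick*, *Nol6* and *Prpf8*. *Tnrc6a*, needed for microRNA silencing, had 6.80-fold enrichment at chr7:123123900-123124130, and the WT lists held the region at 5.04-fold wounded and 3.98-fold unwounded. *H2-K1*, a class I histocompatibility gene, had 5.76-fold at chr17:34000214-34000594 and 5.86-fold in the WT wounded list. *Prpf8*, a core spliceosome gene, had 5.84-fold at chr11:75486491-75486892 and 4.46-fold in the WT wounded list. All 10 regions were in the WT wounded list, and only those of *Tnrc6a* and *Agfg2* were in the WT unwounded list. *Gsto2* was at 0 CPM in all 3 libraries, while other genes of the set were well expressed. *H2-K1* had 898 CPM unwounded and 771 and 778 wounded, and *Prpf8* had 406 unwounded and 474 and 459 wounded.

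Some genes gathered several unshared regions. The most wounded-only regions, 6 each, were nearest to *Gas7*, *Gli3*, *Hrh1* and *Zbtb20*. Next came 13 genes tied at 5, of which the rule took the first in alphabetical order, *2410141K09Rik*, *Adgrl2*, *Alcam*, *Arhgef3*, *Bmper* and *Flrt2*. *Gas7*, an actin-binding growth arrest gene, had 5 of its 6 regions spread over its introns and 1 at its promoter, chr11:67454921-67455107, with 4.17-fold enrichment. *Gli3*, a transcription factor of Hedgehog signalling, had its strongest region in an intron at chr13:15538377-15538564 with 5.08-fold. *Zbtb20*, a zinc finger repressor, had its strongest at chr16:43573951-43574192 with 5.14-fold. Unwounded-only regions were also nearest to some of these genes, 4 for *Arhgef3*, 3 for *Gas7*, 2 for *2410141K09Rik* and 1 each for *Gli3*, *Hrh1*, *Adgrl2* and *Alcam*. RNA of these genes did not go with the wounded side. *Gas7* had 189.7 CPM unwounded against 78.3 and 108 wounded, and *Alcam*, a cell adhesion molecule, 125 against 59.5 and 82.4. *Adgrl2*, an adhesion receptor, had 314 against 174 and 218, and *Gli3* 74.2 against 54.0 and 63.1. *Arhgef3*, *Flrt2* and *Zbtb20* were also lower in both wounded libraries, and *Hrh1*, *Bmper* and *2410141K09Rik* were below 1 CPM in all 3.

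*Vav3*, a guanine nucleotide exchange factor gene, had the most unwounded-only regions, 8 in all. *Arid5b*, *Asap1*, *Crybg1*, *Ezr*, *Laptm4a* and *Pde4d* had 6 each, and *Cd44*, *Frmd4b* and *Grhl2* were taken from 10 genes tied at 5. Regions of the opposite kind lay nearest to some of these genes as well, 5 for *Pde4d*, 2 each for *Vav3* and *Arid5b*, and 1 each for *Asap1* and *Ezr*. The wounded-only region of *Ezr*, which encodes the actin-membrane linker ezrin, was at its promoter. *Cd44* encodes a hyaluronan receptor, and *Grhl2* another Grainyhead factor. *Vav3* RNA was 68.5 CPM unwounded and 117 and 116 wounded, and *Cd44* RNA 642 unwounded and 1019 and 863 wounded, both higher in the wounded libraries although their regions were unwounded-only. The others differed: *Arid5b* had 318 CPM unwounded against 292 and 267, *Ezr* 1172 against 1078 and 995, and *Asap1*, *Frmd4b* and *Laptm4a* were also lower in both wounded libraries. *Grhl2* had 182 CPM unwounded and 155 and 157 wounded.

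No gene of the basal and suprabasal lists had a wounded-only promoter region. Of 10 basal markers, 1 had a shared promoter region, and *Dst*, the gene of the hemidesmosomal plakin dystonin, had an unwounded-only one at chr1:34159997-34160382 with 3.70-fold enrichment. Of 23 suprabasal and cornified envelope genes, 5 had an unwounded-only and none a wounded-only promoter region, beside 4 with a shared one and 14 with none. The 5 were the desmosomal cadherin genes *Dsg1a* (4.09-fold) and *Dsc1* (3.88-fold), the transglutaminase *Tgm5* (4.11-fold), the lipoxygenase *Aloxe3* (3.61-fold) and *Sbsn* (3.43-fold), which encodes suprabasin and is named beyond the naming rule, after its value was seen. All 5 regions were also in the WT wounded list. Their RNA moved in different ways, with *Sbsn* at 407 CPM unwounded against 257 and 281 wounded and *Dsc1* at 111 against 136 and 128. As a whole the suprabasal list summed to 10260 CPM unwounded against 7584 and 9133 wounded.

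Among 24 wound keratinocyte genes, 6 had a shared and 3 an unwounded-only promoter region. Wounded-only promoter regions included those of the protease gene *Plau* (3.88-fold, chr14:20836752-20836947) and the actin-binding protein gene *Cald1* (3.76-fold). The *Plau* region overlapped an unwounded region below the threshold and the *Cald1* region did not. *Plau* RNA was 26.7 CPM unwounded and 64.4 and 71.1 wounded, higher in both wounded libraries. The unwounded-only regions were at *Il24*, a cytokine of the interleukin-10 family, *Itga5*, the fibronectin receptor subunit, and *Krt6a*, the wound keratin. *Il24* had 4.64-fold at chr1:130886419-130886709 and RNA of 0.44 CPM unwounded against 10.4 and 10.6 wounded. *Krt6a* had 3.91-fold at chr15:101694336-101694518 and RNA of 319.7 CPM unwounded against 2371 and 986 wounded. At both genes the region was called in the unwounded list while the transcript was more abundant in both wounded libraries. In WT wounded skin both were called, at 5.57-fold for *Il24* and 4.37-fold for *Krt6a*.

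Unshared promoters of the cytokine list were on the wounded side, while by distance the list was even, with 9 genes nearest to a wounded-only and 8 to an unwounded-only region (15.5% and 17.2% of all genes). Of 20 cytokine and NF-kB feedback genes, 5 had a wounded-only and 0 an unwounded-only promoter region. A shared one was at 6, with *Il1r1* in both counts. The 5 with a wounded-only region are named next. They were *Il18*, *Cxcl1*, *Il6*, *Il1r1* and *Ccl20*, of which *Cxcl1* and *Ccl20* attract leukocytes and *Il1r1* encodes the interleukin-1 receptor. The *Il18* region at chr9:50554808-50555022 was 4.92-fold enriched, overlapped no unwounded region, and was 5.42-fold in the WT wounded list. The regions of *Cxcl1* (4-fold), *Il6* (3.84-fold) and *Il1r1* (3.60-fold) overlapped unwounded regions below the threshold, and the *Ccl20* region (3.58-fold, chr1:83116583-83116898) did not. *Ccl20* is named beyond the 4 genes per list that the naming rule takes, after its value was seen. *Cxcl1* RNA was 45.8 CPM unwounded and 87.2 and 114 wounded, and *Ccl20* RNA 11.9 unwounded and 19.6 and 37.1 wounded. *Il6* RNA went the other way, 12.4 unwounded and 5.52 and 6.37 wounded. Of 14 interferon-stimulated genes, 4 had a shared promoter region, *Cmpk2* an unwounded-only one (3.95-fold) and none a wounded-only one.

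Junction and actin genes had regions of all kinds at their promoters. Of 25 cell junction genes, 16 had a shared promoter region, *Pkp1* and *Ocln* a wounded-only one and *Cdh1*, *Gjb2* and *Dsp* an unwounded-only one. These span several kinds of junction, since *Pkp1* and *Dsp* are desmosomal, *Ocln* is of tight junctions, *Cdh1* encodes E-cadherin of adherens junctions and *Gjb2* a gap junction connexin. *Gjb2* RNA was 8.30 CPM unwounded and 173 and 73.0 wounded, with its region called in the unwounded list at 3.61-fold. Of 31 actin and focal adhesion genes, 14 had a shared, 7 a wounded-only and 3 an unwounded-only promoter region. The wounded-only ones were at *Rac1*, which drives lamellipodia (4.33-fold), the Arp2/3 subunit gene *Arpc2* (3.92-fold), *Ezr* (3.66-fold), the focal adhesion kinase relative *Ptk2b* (3.81-fold), *Cald1*, *Flna* and *Actb*. The unwounded-only ones were at *Actn1* (4.76-fold), *Tpm1* (3.86-fold) and *Actn4* (3.83-fold), whose products crosslink or coat actin filaments. *Rac1* RNA was 242 CPM unwounded and 286 and 223 wounded, while *Actn1* RNA was 147 unwounded and 258 and 228 wounded. *Flna* is named beyond the naming rule, after its value was seen.

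Signalling genes were split. Of 19 integrin, laminin and matrix genes, *Fn1*, the fibronectin gene, had a wounded-only promoter region (4.52-fold, chr1:71652929-71653115) and its receptor gene *Itga5* an unwounded-only one (4.38-fold). Both had more RNA in the wounded libraries, *Fn1* with 16.9 CPM unwounded against 33.9 and 44.3 and *Itga5* with 12.0 against 25.2 and 15.3. Of 11 EGF ligands and receptors, the receptor gene *Erbb3* was wounded-only and the ligand gene *Tgfa* unwounded-only, beside 6 with a shared region. The *Erbb3* site was called at 3.28-fold (−log10 p 3.75) wounded and, below the threshold, at 3.34-fold (4.32) unwounded, so it was wounded-only through the different ends of the lists. Of 14 TGF-beta pathway genes, 9 had a shared and none an unwounded-only promoter region, and the feedback inhibitor gene *Pmepa1* had a wounded-only one (3.11-fold) that was slightly stronger in the unwounded list (3.16-fold, below the threshold). Of 13 Hippo pathway genes and YAP targets, 9 were shared, the matrix protein gene *Ccn2* wounded-only (3.78-fold) and the kinase gene *Lats1* unwounded-only (3.66-fold). Of 12 Notch genes, 7 were shared and none had an unshared promoter region.

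Transcription factor genes had unshared regions mainly away from promoters. Of 27 epidermal transcription factor genes, 16 had a shared promoter region, *Sox4* and *Ovol2* a wounded-only one and *Tfap2c* an unwounded-only one. Within 100 kb, 13 of the 27 were nearest to a wounded-only region and 22 to an unwounded-only one, with 22 and 39 regions. Over all protein-coding genes the shares by this measure were 15.5% and 17.2%. *Sox4*, a factor of progenitor states, gathered 5 wounded-only regions and had 23.8 CPM unwounded against 33.2 and 44.5 wounded. *Grhl2* with 5 and *Tfap2a* with 3 gave 8 of the 39 unwounded-only regions. Of 12 AP-1 and stress factors, *Fos* had a wounded-only promoter region (4.35-fold, chr12:85473629-85473835) and *Fosl1* an unwounded-only one (3.68-fold), beside 6 with a shared one. *Fos* RNA was 3287 CPM unwounded and 2041 and 1932 wounded. Immediate early genes such as *Fos* are also induced by tissue handling, whose part here was not tested.

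Genes of metabolism and basic cell functions stood on both sides. Of 16 glycolysis and hypoxia genes, 10 had a shared promoter region, *Eno1*, *Gapdh*, *Slc2a1* and *Ldha* a wounded-only one, and *Gapdh* and *Ldha* also an unwounded-only one at another place in the promoter. RNA of this list was higher in the wounded libraries, with a median log2 ratio of 0.90 over 15 genes, *Eno1* at 0 being left out. *Slc2a1*, the glucose transporter gene, had 211 CPM unwounded against 518 and 371, and *Ldha*, the lactate dehydrogenase gene, 237 against 606 and 401. Of 16 chromatin regulators, *Rest* and *Dnmt1* were wounded-only and *Hdac1*, *Kmt2a*, *Ep300* and *Smarca4* unwounded-only. Of 15 housekeeping genes, *Ppia*, *Gapdh*, *Rplp0* and *Actb* had a wounded-only and *Rps18*, *Gapdh* and *Polr2a* an unwounded-only promoter region. Promoters of constantly transcribed genes were thus also among the unshared ones. Of 14 cell cycle genes, 11 were shared and none unshared, while their RNA had a median log2 ratio of 0.57. By symbol, zinc finger genes (Zfp) gave 33 wounded-only and 25 unwounded-only promoters of 397, ribosomal genes 3 and 3 of 57 (Rpl) and 3 and 5 of 45 (Rps), and histone genes 4 and 5 of 67. Olfactory receptor genes gave 1 and 1 of 1134, Hox genes 0 and 1 of 39, and genes with the prefix Krt, which keratin-associated protein genes share, 0 and 1 of 113.

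Markers of other skin cells were counted because the sort could pass some of them. Of 12 endothelial markers, *Kdr* (4.92-fold, chr5:75978269-75978525) and *Flt1* (3.52-fold), both VEGF receptor genes, had wounded-only promoter regions, 0 had an unwounded-only and 1 a shared one. Endothelial marker RNA summed to 2 CPM unwounded and to 17.7 and 24.7 wounded, with *Kdr*, *Flt1*, *Cdh5*, *Tie1*, *Emcn*, *Egfl7*, *Cldn5* and *Esam* at 0 unwounded. The most abundant endothelial marker was *Eng* unwounded (1.11 CPM) and *Pecam1* (3.88 CPM) and *Vwf* (7.70 CPM) in the separate wounded libraries. Of 10 fibroblast markers, *Pdgfra* (3.67-fold) and *Col1a2* (3.53-fold) had wounded-only promoter regions and none an unwounded-only one. Their RNA summed to 78.2 CPM unwounded and 104 and 133 wounded, with *Dcn*, *Lum*, *Dpt* and *Fbn1* at 0 unwounded. *Col6a1* led the unwounded library with 41.1 CPM, against 15.2 and 22.3 wounded, and *Thy1* led the wounded ones with 60.8 and 68.8 CPM, against 26.1 unwounded. *Pdgfra* RNA was 1.26 CPM unwounded and 0.33 and 0.70 wounded. *Col3a1* had 0.30 CPM unwounded against 8.47 and 14.2, *Col1a1* 1.85 against 6.44 and 8.61, and the median log2 ratio of the 8 fibroblast genes that passed the count filter was 1.62. By distance, 4 endothelial markers were nearest to a wounded-only and 2, *Pecam1* and *Tek*, to an unwounded-only region, and *Tek* RNA was 0.52 CPM unwounded and 0.39 and 1.12 wounded. The summed RNA of endothelial markers was thus higher in both wounded libraries, at low levels, with few regions at these genes, and most fibroblast markers were higher too, with *Col6a1* and *Pdgfra* lower. The part of such cells in the wounded-only regions was not tested. None of 12 leukocyte markers had a promoter region, and their RNA summed to 2.67, 3.42 and 4.83 CPM, with *Tyrobp*, *Fcer1g*, *Cd3e* and *Cd3g* at 0 in all 3 libraries. *Cd52* led that list unwounded with 1.70 CPM, and *Csf1r* (1.64) and *Lyz2* (2.80) in the separate wounded libraries. Mural markers had 1 shared promoter region of 7 and summed to 156 CPM unwounded and 75.5 and 72.6 wounded, with *Myh11* and *Pdgfrb* at 0 in all. Most of that sum was *Cspg4*, at 154.5, 71.7 and 63.6 CPM, while *Acta2* had 0.07, 0.72 and 4.48 and the median log2 ratio of the 4 mural genes that passed the count filter was 1.65. Melanocyte markers had 2 shared of 7 with 58.8, 33.6 and 31.3 CPM, with *Mlana* at 0. Most of that sum was *Mitf*, at 51.9, 24.5 and 21.3 CPM, and *Kit* and *Sox10* were also lower in both wounded libraries. *Dct* (0.44, 4.01 and 2.80 CPM) and *Pmel* (0.22, 1.51 and 2.03 CPM) were higher in both, and *Tyr* was lower in the first and higher in the second. Erythroid markers had 0 of 6 with 1.19, 0.53 and 1.61 CPM, led by *Alas2*, with *Hba-a1*, *Hbb-bs*, *Gata1* and *Tal1* at 0. Of 13 hair follicle markers, *Msx2* had a wounded-only promoter region (4.12-fold) and 3 a shared one, and the list summed to 2884 CPM unwounded and 1889 and 2567 wounded, led by *Krt79*.

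Genes of the study's text were looked up with 10 kb on each side, together with *Nrg1*, *Flt1*, *Tmsb10* and *Ptk2b*, which that text does not name. *Fscn1*, which encodes the actin-bundling protein fascin, had a wounded-only region 1484 bases upstream of its start at chr5:142958766-142958951, with 3.98-fold enrichment. The WT wounded list held it at 4.81-fold and both unwounded lists lacked it. A region in a *Fscn1* intron was shared, with 4.01-fold wounded and 4.02-fold unwounded. *Fscn1* RNA was 33.7 CPM unwounded and 129 and 56.4 wounded, above the unwounded library in both but with a wide gap between them. *Cdh1* had an unwounded-only promoter region at chr8:106603252-106603443 (3.82-fold, in no WT list) and a wounded-only intron region at chr8:106615906-106616220 (3.70-fold) that an unwounded region below the threshold overlapped. *Cdh1* RNA was 1219 CPM unwounded and 1063 and 1148 wounded. *Pdpn*, a membrane glycoprotein gene, had a wounded-only intron region at chr4:143297052-143297387 (3.59-fold), which both WT lists held. Its RNA was 0.22 CPM unwounded and 20.4 and 4.06 wounded.

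At *Grhl3* the unwounded list had an intron region at chr4:135565597-135565896 (3.47-fold), unwounded-only, and the wounded list had none within 10 kb of the gene. WT wounded skin had that region at 3.42-fold and the WT unwounded list did not. The basal keratin gene *Krt5* had an unwounded-only region at chr15:101713971-101714153 (3.49-fold) and the spinous keratin gene *Krt1* one at chr15:101855407-101855946 (3.56-fold), neither of them in a WT list. The *Krt14* promoter was called below the threshold in the unwounded list (3.15-fold) and in the WT wounded list (3.29-fold). *Krt6b* and *Krt10* had no region in any of the 4 lists, although *Krt10* had 4259 CPM unwounded, so a high transcript level did not need a called region. Between *Krt16* and *Krt17* lay shared regions and an unwounded-only one at chr11:100254463-100254961 (3.67-fold). *Flt1* had wounded-only regions at its promoter, chr5:147725121-147725577, and in an intron, and *Ptk2b* at its promoter, chr14:66280980-66281165. *Nrg1*, which encodes the EGF family ligand neuregulin, had 3 wounded-only intron regions, all in the WT wounded list, and 6 shared regions. *Itga5* had its promoter region at chr15:103366629-103366834 on the unwounded side, with further unshared regions of both kinds downstream. *Arhgef19* and *Tmsb10* had shared promoter regions and *Cldn1* a shared intron region. In the *Grhl3*-cKO lists *Col17a1* had only an unwounded region below the threshold. The WT wounded list held 2 intergenic regions near *Col17a1* (4.33-fold and 3.67-fold), and the WT unwounded list none.

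RNA was set beside the regions for 11650 protein-coding genes with a mean of at least 10 counts over the 3 libraries. In both wounded libraries, 511 of them (4.39%) were at least 2-fold higher than unwounded and 270 (2.32%) at least 2-fold lower. Of 1189 genes with a wounded-only promoter region, 895 passed this filter, and 39 (4.36%) were higher and 25 (2.79%) lower. Of 1233 with an unwounded-only promoter region, 1046 passed, and 21 (2.01%) were higher and 15 (1.43%) lower. Genes with a shared promoter region had 2.58% and 1.44%. The wounded-only shares were thus near those of all genes and above those of shared promoters in both directions, while the unwounded-only shares were below those of all genes and nearer to those of shared promoters. The median log2 ratio was −0.01 for the wounded-only and 0.01 for the unwounded-only set, against −0.01 for 8097 genes with any promoter region. Both promoter classes thus had medians near that of all genes with a promoter region. Genes nearest to 3 or more wounded-only regions had a median log2 ratio of −0.18 (143 of 182 genes passed), with −0.23 and −0.09 in the separate wounded libraries. Those nearest to 3 or more unwounded-only regions had −0.07 (188 of 216), with −0.12 and −0.04. Genes with several wounded-only regions were thus, at the median, slightly lower in wounded RNA, as the single genes *Gas7* and *Alcam* were.

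Sequence in the 300 bases around each midpoint was searched on both strands for short motifs, and shares are given beside those of the same length at all 32851 RefSeq promoters. The AP-1 sequence TGANTCA was in 29.4% (28.2 to 30.6%) of wounded-only, 31.0% (29.9 to 32.2%) of unwounded-only and 27.2% of shared regions, against 7.81% of promoters. Outside promoters the shares were 35.4% (34.0 to 36.8%), 36.9% (35.5 to 38.3%) and 42.7% (41.7 to 43.7%), so unshared distal regions held it less often than shared ones. The Grainyhead palindrome AACCGGTT was in 0.258% of wounded-only, 0.357% of unwounded-only and 0.252% of shared regions, against 0.146% of promoters. Its looser form AACNNGTT, which includes the palindrome, was in 6.62%, 6.81% and 6.17%, against 4.20% of promoters. Outside promoters the looser form was in 7.48%, 7.66% and 8.53%, so unshared distal regions were not above shared ones. Among regions at promoters it was in 3.72%, 3.94% and 3.12%. The unshared regions of both *Grhl3*-cKO conditions had like shares of these motifs. Shared regions are wider, and over whole regions they held TGANTCA in 33.0%, above the 29.4% of wounded-only and 30.8% of unwounded-only regions, so the order of shared and unshared regions depends on the window. ACATTCC, bound by TEAD factors, was in 5.84%, 5.40% and 4.68%, against 3.85% of promoters, and TGTGGTT of RUNX factors in 6.55%, 6.42% and 5.72%, against 5.27%. For distal regions alone ACATTCC was in 6.23%, 6.18% and 6.36% and TGTGGTT in 7.46%, 6.97% and 7.70%, neither above shared regions. For regions at promoters ACATTCC was in 4.54%, 2.75% and 2.51% and TGTGGTT in 3.50%, 4.54% and 3.17%. Motifs common at promoters were rarer in unshared regions, which lie less often at promoters. GGGCGG, bound by SP and KLF factors, was in 19.3%, 20.9% and 35.3%, against 35.7% of promoters, and CCGGAAGT of ETS factors in 1.55%, 1.61% and 3.13%, against 3.89%. Within regions at promoters the gaps were smaller, with GGGCGG in 54.5%, 57.7% and 66.8% and CCGGAAGT in 5.13%, 5.88% and 6.60%. Within distal regions CCGGAAGT was in 0.469%, 0.352% and 0.437%. CCAAT, bound by NFY, was in 34.2%, 34.6% and 36.1%, against 37.4% of promoters. Among regions at promoters alone, CCAAT was in 29.6% (27.2 to 32.1%) of wounded-only, 35.8% (33.3 to 38.4%) of unwounded-only and 38.1% of shared regions. Mean GC content was 50.8%, 51.6% and 55.2%. A match is a description of letters, not a measured binding site.

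The sequences below are the plus strand of mm10 from RefSeq (GRCm38.p6), with capitals on every match to the searched motifs. The first 4 are shown because they were the strongest regions of each direction that held TGANTCA, among regions of at most 300 bases outside promoters and exons, chosen after their values were seen. *Gipc2* (chr3:152152121-152152359) and *Parp8* (chr13:117018292-117018546) are wounded-only, and *A430005L14Rik* (chr4:153947115-153947405) and *Lnx1* (chr5:74738320-74738592) unwounded-only. The *Gipc2* region holds TGANTCA at 2 places and AACNNGTT at 1.
Gipc2: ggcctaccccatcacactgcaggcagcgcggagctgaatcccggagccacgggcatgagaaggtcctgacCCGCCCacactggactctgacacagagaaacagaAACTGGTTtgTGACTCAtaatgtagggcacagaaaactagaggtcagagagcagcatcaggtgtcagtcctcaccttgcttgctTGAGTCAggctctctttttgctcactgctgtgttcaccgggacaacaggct
Parp8: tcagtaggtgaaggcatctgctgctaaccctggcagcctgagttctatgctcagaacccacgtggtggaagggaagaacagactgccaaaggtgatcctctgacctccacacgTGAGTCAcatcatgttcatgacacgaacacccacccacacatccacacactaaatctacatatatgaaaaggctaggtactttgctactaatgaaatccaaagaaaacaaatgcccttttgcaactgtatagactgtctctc
A430005L14Rik: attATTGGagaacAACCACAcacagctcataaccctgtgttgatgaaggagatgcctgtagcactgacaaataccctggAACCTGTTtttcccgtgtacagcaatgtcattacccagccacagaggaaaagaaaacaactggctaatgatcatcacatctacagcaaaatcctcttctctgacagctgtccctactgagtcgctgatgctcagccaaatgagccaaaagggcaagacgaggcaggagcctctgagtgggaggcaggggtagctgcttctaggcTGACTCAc
Lnx1: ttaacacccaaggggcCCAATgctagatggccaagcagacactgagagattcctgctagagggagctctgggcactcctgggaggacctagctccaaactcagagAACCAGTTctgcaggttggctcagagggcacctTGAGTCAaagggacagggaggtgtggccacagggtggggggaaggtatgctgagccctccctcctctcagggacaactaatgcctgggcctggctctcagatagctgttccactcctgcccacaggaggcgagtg

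The other 4 sequences are shown because their genes are central to the study's question of adhesion, migration and keratinocyte identity. They are the wounded-only regions of *Fscn1* (chr5:142958766-142958951) and *Pdpn* (chr4:143297070-143297369, the middle 300 bases) and the unwounded-only regions of *Krt5* (chr15:101713971-101714153) and *Grhl3* (chr4:135565597-135565896). The *Fscn1* region holds AACNNGTT once, from base 62, those of *Krt5* and *Grhl3* hold CCAAT, and in the *Pdpn* stretch none of the searched letters occurs.
Fscn1: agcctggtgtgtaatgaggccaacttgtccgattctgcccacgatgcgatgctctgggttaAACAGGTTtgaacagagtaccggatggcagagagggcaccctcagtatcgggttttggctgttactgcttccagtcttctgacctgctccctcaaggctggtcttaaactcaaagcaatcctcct
Pdpn: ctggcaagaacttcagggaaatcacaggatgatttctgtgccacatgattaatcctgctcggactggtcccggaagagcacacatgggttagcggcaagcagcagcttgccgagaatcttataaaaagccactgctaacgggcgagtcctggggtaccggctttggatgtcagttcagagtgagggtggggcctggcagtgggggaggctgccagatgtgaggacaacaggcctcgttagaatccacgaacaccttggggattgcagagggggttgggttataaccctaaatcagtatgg
Krt5: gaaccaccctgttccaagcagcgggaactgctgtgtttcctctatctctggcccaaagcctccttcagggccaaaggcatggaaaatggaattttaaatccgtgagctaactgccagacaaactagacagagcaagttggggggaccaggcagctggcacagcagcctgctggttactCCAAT
Grhl3: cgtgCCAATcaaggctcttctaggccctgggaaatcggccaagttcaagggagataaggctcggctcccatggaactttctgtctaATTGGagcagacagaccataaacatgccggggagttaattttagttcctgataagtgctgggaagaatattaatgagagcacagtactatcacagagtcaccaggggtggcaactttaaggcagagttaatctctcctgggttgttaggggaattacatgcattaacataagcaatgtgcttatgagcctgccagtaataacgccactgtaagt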

How the data were processed

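ATAC-seq region lists of sorted keratinocytes (wounded and unwounded *Grhl3*-cKO and WT, 1 library each) and RNA counts of 3 *Grhl3*-cKO libraries were used. The authors trimmed reads with Trimmomatic, aligned them to mm10 with bowtie2 and called broad regions with MACS2, and the names inside the lists say that no control library was used. The deposited lists give a fold enrichment, a ratio over the local background of the same library. The deposited −log10 p and −log10 q come from the caller and grow with depth. The deposited score, made from the q-value, was not used. The deposited RNA files hold whole-number read counts per gene, for which the labels name kallisto and FastQC. Rows that tally reads on no gene were left out of library sizes.

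Regions were placed by midpoint on the GENCODE basic annotation (promoter within 1000 bases of a transcript start, then exon, intron, intergenic). Genes were counted at promoters and as the nearest protein-coding start within 100 kb. RNA is given as CPM and as log2 ratio with a prior count of 2, for genes with a mean of at least 10 counts. A ratio without a library named is the mean over the wounded libraries. No test was made, since each ATAC condition and unwounded *Grhl3*-cKO RNA had 1 library (wounded RNA had 2), and shares have Wilson 95% intervals. Tables were read with pandas 2.3.3 and numpy 2.4.6 in Python 3.11.15, sequence with pysam 0.24.0, and intervals came from scipy 1.17.1. The scripts were tested on simulated data.

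Genes were named by rule: the genes of the study's text, the 10 protein-coding genes per direction with the strongest unshared promoter region, the 10 with the most unshared regions, and up to 4 per direction from each of 26 gene lists. Beside the genes of the study's text, *Nrg1*, *Flt1*, *Tmsb10* and *Ptk2b* were taken, which that text does not name. The members and lists were chosen with earlier results of these data known. Alternatives changed the ranking, list length, overlap, enrichment, promoter width, chromosomes, prior count and count filter.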

Additional observations from a re-analysis of the deposited data

Results flagged for a closer look

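Against the WT direction, 457 regions (7.76%) of the *Grhl3*-cKO unwounded list only were among those of the WT wounded list only when the same rule was applied to the WT lists. In the other direction, 326 regions (5.60%) of the *Grhl3*-cKO wounded list only were among those of the WT unwounded list only. They are listed because the rule, with each WT list at 10769 regions, put them on opposite sides in the 2 genotypes. The WT wounded list is much longer than that, and only 45 wounded-only regions were in the WT unwounded list and in no region of the full WT wounded list. Those in the same direction in both genotypes numbered 331 (5.69%) for wounded and 416 (7.06%) for unwounded, near the shares in the opposite direction. The difference between genotypes was not tested, since each condition had 1 library.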

How the results depend on the processing

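Under 25 alternative settings, 111 of 157 values stayed within their interval, or for counts within 1.5 times, and 46 moved. The median RNA ratios of the promoter sets and the motif shares of unshared regions were among the former. So were all values with regions ranked by q, merged within 500 bases, or shared within 500 bases. The same held on chromosomes 1 to 19, with or without X, and with placing by any overlap with a promoter. For the RNA ratios the interval was the standard deviation between the medians of the separate wounded libraries, on each side. Leaving out 1 of these libraries therefore stays within it nearly by construction. Values below are the share at promoters, then the share in the WT wounded list, unless named. Ranked by enrichment, wounded-only regions had 24.2% and 70.7%. With all deposited regions, 3710 were wounded-only (19.3%, 58.9%, 815 genes with a promoter region of all gene types), and 10658 unwounded-only (63.7% in the WT wounded list, 2778 genes). Against the full other list the wounded-only values were again 3710, 19.3%, 58.9% and 815. With the strongest 10000 regions, 3012 were wounded-only (33.3%, 93.7%) and 3022 unwounded-only (35.0%, 95.9%). With the strongest 5000, the values were 1599 (44.0%, 98.0%, 869 genes) and 1600 (38.7%, 98.8%, 775 genes). Lists of other lengths hold other numbers of regions, so the counts move by construction. An overlap of at least 50% gave 24.8% and 72.4% for wounded-only and 27.1% and 77.8% for unwounded-only regions, with 2503 genes. At 4-fold enrichment or more, the values were 29.8% and 86.2% against 29.6% and 87.1%. At q of at most 0.01 they were 25.9% and 79.5% against 25.8% and 80.6%. Promoter shares followed the width, with 19.8% and 20.1% at 500 bases, 29.1% on both sides at 2500 bases, and 25.7% and 25.5% with all transcripts. For the other shares that moved the cause was not tested. Over whole regions in place of 300 bases, shared regions held AACNNGTT in 9.01%, ACATTCC in 6.80%, TGTGGTT in 8.56% and CCAAT in 46.9%, above both kinds of unshared region, since wider regions hold more letters.

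No paired analysis was possible because each condition had 1 pooled ATAC library and nothing in the labels pairs RNA libraries by animal. Their titles number the unwounded library 2 and the wounded ones 1 and 2, but the unwounded file is numbered 1. The lists hold only called regions, so a weakly open site and a closed one cannot be told apart. The number of reads behind each list was not used here. Among the 5619 weakest kept regions of each list, 52.5% were wounded-only and 50.9% unwounded-only, against 2.21% and 2.60% among the 5618 strongest. The part of sequencing depth in these shares was not tested. Wounded and unwounded RNA libraries also differ in sex-linked transcripts. Regions were joined to genes by distance alone.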
